A study of Drosophila melanogaster with 24 samples.

Results

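The glutathione S-transferase (GST) genes of the fly head were followed in wild-type and cwo5073 mutant flies over a light-dark day. The set holds every gene whose name in the count table begins with Gst and a class letter and that had at least 10 counts in at least 2 libraries. Of 35 such names, 31 met the count rule, among 16722 genes in the table: 8 of the delta class (GstD), 13 of the epsilon class (GstE), 3 omega (GstO), 1 sigma (GstS1), 4 theta (GstT) and 2 zeta (GstZ). GstD4, GstD6 and GstD7 reached 10 counts in 0 libraries, with highest counts of 8, 7 and 4, and GstE10 reached 10 counts in 1. The lowest member was GstD5, which reached 10 counts in 4 libraries. All 31 were among the 11095 genes tested.

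Heads of cwo5073 mutants and of w1118 flies, the strain given as their control, were sampled at zeitgeber times (ZT, hours after lights on) 2, 6, 10, 14, 18 and 22, with 2 libraries of poly(A) RNA per genotype and time. Light and dark lasted 12 h each at 25 °C for both genotypes, with 3 days of entrainment and collection on day 4. Clockwork orange, the product of cwo, represses transcription within the fly's circadian clock. Nothing in the labels says that the 2 libraries of a group came from separate cultures or collections, so each p-value reflects only how far these libraries vary. The comparison is between 1 mutant line and 1 control strain, whose sex, age and shared background are not given in the labels. Whole heads were used, so in every comparison fewer cells of a type and less RNA per cell cannot be told apart. Library totals were 11322400 to 19642411 counts. RNA of cwo itself was higher in every mutant library (lowest 241, median 477 and highest 912 CPM, counts scaled to library size) than in any wild-type library (51.1, 84.1 and 174). The head markers were present: the 7 photoreceptor markers summed to 56411 to 76530 CPM in wild type and 77733 to 94507 CPM in the mutant, and the 7 markers of the male reproductive tract found in the table summed to at most 1.51 CPM.

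GST enzymes join the tripeptide glutathione to reactive or foreign molecules, which makes them soluble and ready for export from the cell. Insects carry the usual zeta, theta, omega and sigma classes and have in addition the delta and epsilon classes, which grew by gene duplication and are known for the breakdown of insecticides and of lipid peroxidation products. Several members have other duties: in flies GstE14 (also called noppera-bo) is needed for steroid hormone synthesis, and zeta enzymes act in tyrosine breakdown.

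One wild-type library, ZT2 replicate 2, stood apart. Over all genes tested, its Spearman's rho with each other library had a median of 0.893, against medians of 0.953 to 0.982 for the rest. Abundant genes with long transcripts were depleted in it compared with those with short ones, by -0.98 in log2, with -1.10 to 0.15 over all wild-type libraries (lowest in ZT22 replicate 1) and -0.35 to 0.48 in the mutant. GST transcripts are short, 734 to 2202 nt with a median of 881 nt, against 1825 nt for all genes tested, and 13 of the 31 have a single exon. Changes over all times are given with all 24 libraries and without that library, and for called genes also with offsets that remove each library's smooth trend against transcript length. Across all genes tested the log2 fold change of mutant against wild type rose with transcript length (Spearman's rho 0.43, and 0.42 without that library, over 11095 genes, which share libraries and are no independent replicates).

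The family covers a wide range of levels in the head. On the FPKM scale, which is per transcript length and summed here over the transcripts of a gene, GstD1, the best known delta enzyme and an antioxidant and DDT-metabolising GST, was the most abundant, at a level of 351 ± 63.5 FPKM (mean ± SD, n = 12) in wild type and 328 ± 48.5 FPKM in the mutant. GstE12, an epsilon gene outside the main cluster, came next with 305 ± 60.8 FPKM in wild type and 258 ± 32.8 FPKM in the mutant, a level within the spread of GstD1 in wild type. GstO2 had rank 3 in wild type and rank 5 in the mutant, at 85.3 ± 12.1 and 67.9 ± 11.1 FPKM, below GstD1 and GstE12 in every library. GstE6 (77.6 ± 21.4 FPKM in wild type) and GstE9 (72.9 ± 29.8 FPKM) followed in wild type, each within its own SD of GstO2. In the mutant GstE4 (73.8 ± 28.3 FPKM) and GstE9 (70.8 ± 17.6 FPKM) stood just above GstO2, by less than their SD. At the other end GstD5 lay at 0.54 ± 1.19 FPKM in wild type. Its highest library, wild-type ZT6 replicate 1, held 63 counts, while the other wild-type libraries held 0 to 8. The FPKM of all 31 genes summed to 1251, 1361 and 1985 (lowest, median, highest) in wild type and to 993, 1274 and 1492 in the mutant, so the genotypes overlapped, and GstD1, GstE12 and GstO2 together held 50.5% ± 1.86 (SD, n = 12) of the wild-type sum and 51.5% ± 1.46 of the mutant sum.

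**Figure D1:**
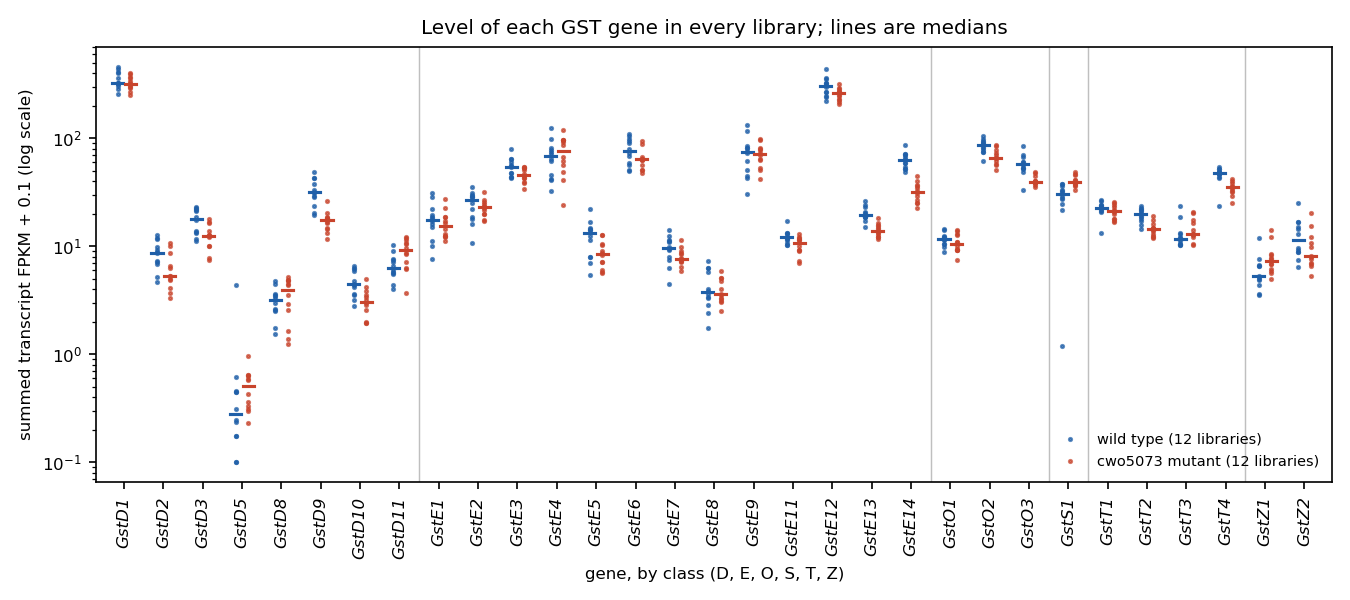
Level of each of the 31 GST genes in every library, as summed transcript FPKM plus 0.1 on a log axis, grouped by class; each point is a library (blue wild type, red cwo5073 mutant, 12 each) and the short lines are medians. GstD1 and GstE12 stand above the rest, GstD5 is lowest, and the red points of GstE14 lie below all of its blue points.

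Over all times, 10 of the 31 GST genes were lower and 2 were higher in the mutant (edgeR's quasi-likelihood test, Benjamini-Hochberg adjusted p under 0.05 over all 11095 genes), where 13.9% of all genes tested were lower and 14.1% higher. With single libraries left out, the median log2 fold change of the 31 ran from -0.25 to -0.16, and the number of genes called varied. Without wild-type ZT2 replicate 2 the counts were 9 lower and 3 higher, against 13.8% and 15.4% of all genes. The median log2 fold change of the 31 was -0.21 with all libraries and -0.18 without that one, beside -0.01 over all genes tested in both fits, but 0.05, on the other side of 0, with the offsets for transcript length. The number of members below 0 was 23 of 31 with and without that library (51.0% and 51.2% of all genes) and 14 of 31 with the length offsets. In the fit with offsets 5 genes were lower (GstD9, GstE13, GstE14, GstT4 and GstZ2; 8.97% of all genes) and 2 higher (GstD11 and GstZ1; 10.6%). These 7 genes, and no other GST gene, were called with all libraries, without wild-type ZT2 replicate 2 and with the length offsets. All of these fits take the libraries of a genotype as independent. In the mutant, deviations of same-numbered libraries correlated between times, at 0.084 to 0.45 over 15 pairs of times (-0.33 to 0.18 in wild type). A shift shared by same-numbered libraries is not averaged out over times. The SE and adjusted p over all times can therefore be too small, in GST genes and in all genes.

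**Figure D2:**
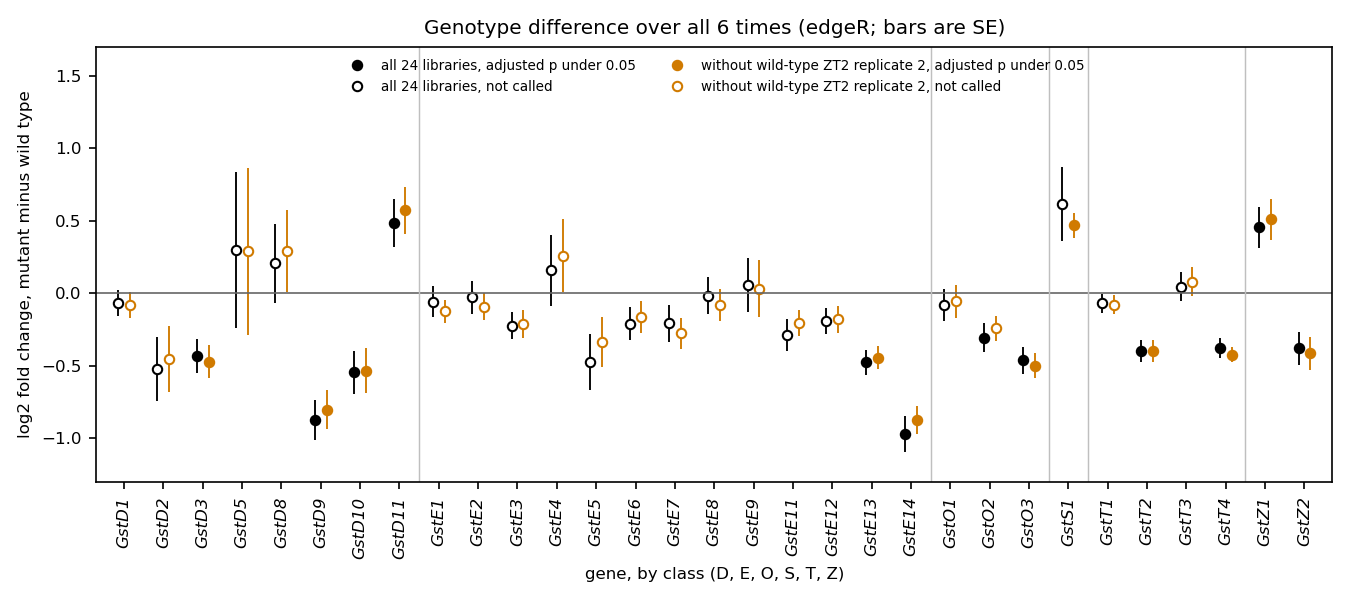
Log2 fold change of mutant against wild type over all 6 times for each GST gene, with SE bars, from all 24 libraries (black) and without wild-type ZT2 replicate 2 (orange); filled points have an adjusted p under 0.05. GstE14 and GstD9 are lowest, 11 genes are filled in both colours, GstO2 only in black and GstS1 only in orange.

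In the delta class 3 of 8 members were lower (GstD9, GstD10 and GstD3), 1 was higher (GstD11) and 4 were not called, in both fits. All 8 lie in one cluster on chromosome arm 3R between 12364776 and 12385624 (dm6), 3 of them (GstD1, GstD9 and GstD10) on the minus strand. GstD9 had 15.8, 24.98 and 49.96 CPM in wild type (lowest, median, highest of 12 libraries) and 9.90, 14.5 and 21.3 CPM in the mutant. Of the 12 mutant libraries, 9 lay below the lowest wild-type library and all 12 below the wild-type median. Its log2 fold change was -0.87 ± 0.14 (SE, adjusted p = 0.00043) and -0.80 ± 0.13 (adjusted p = 0.00066) without wild-type ZT2 replicate 2, and -0.61 (adjusted p = 6.5e-05) with the length offsets.

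GstD3 was at 8.73, 13.2 and 17.4 CPM in wild type and 6.14, 10.1 and 13.8 CPM in the mutant, with 4 mutant libraries below all of wild type and a log2 difference of -0.43 ± 0.12 (SE, adjusted p = 0.015). GstD10, a scarce member, was at 2.38, 4.01 and 5.88 CPM in wild type and 1.73, 2.82 and 4.41 CPM in the mutant, again with 4 libraries below all of wild type, and changed by -0.54 ± 0.15 (SE, adjusted p = 0.016). Both calls held without wild-type ZT2 replicate 2 (-0.47 ± 0.12, adjusted p = 0.010; -0.53 ± 0.15, adjusted p = 0.021) and ended with the length offsets, where the values were -0.20 and -0.32. GstD11 went the other way, with 3.92, 6.26 and 12.999 CPM in wild type and 4.11, 9.11 and 11.6 CPM in the mutant. The genotypes overlapped. The highest wild-type value was in ZT2 replicate 2, and 8 of the 12 mutant libraries lay above the highest of the other 11. GstD11 changed by 0.49 ± 0.17 (SE, adjusted p = 0.042) and by 0.57 ± 0.16 (adjusted p = 0.018) without that library, and by 0.68 (adjusted p = 0.0043) with the length offsets. It passed the threshold in 19 of 40 alternative fits, with adjusted p from 0.0041 to 0.62. GstD1 itself, at 236, 282 and 403 CPM in wild type and 222, 283 and 344 CPM in the mutant, did not pass (-0.07 ± 0.09, adjusted p = 0.61), nor did GstD2, GstD5 and GstD8 (log2 -0.52, 0.30 and 0.21).

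In the epsilon class 2 of 13 members were lower, none was higher and 11 were not called, in both fits. Neither of the 2 lies in the epsilon cluster. GstE14, on arm 2R (13239729 to 13241013, plus strand), was the member with the largest change and the only one whose genotypes did not overlap: 49.2, 62.9 and 107 CPM in wild type and 25.7, 35.2 and 45.9 CPM in the mutant. For comparison, 0.856% of all genes tested had all mutant libraries below all wild-type ones, and 0.820% had them all above. GstE14 changed by -0.97 ± 0.12 (SE, adjusted p = 4.8e-05) with all libraries and by -0.87 ± 0.10 (adjusted p = 2.1e-05) without wild-type ZT2 replicate 2, its highest wild-type library, and remained past the threshold in all 40 alternative fits. With the length offsets it was -0.76 (adjusted p = 8.1e-06). Its level was 63.03 ± 10.9 FPKM in wild type and 31.97 ± 6.67 FPKM in the mutant. GstE14 is known from the ring gland of fly larvae, where ecdysone is made; its product is thought to act on the cholesterol supply of that pathway.

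GstE13, also on 2R (9122125 to 9123309), was at 13.4, 17.3 and 22.5 CPM in wild type and 11.05, 12.6 and 16.4 CPM in the mutant. Of its mutant libraries 7 lay below all of wild type and all 12 below the wild-type median, and it changed by -0.47 ± 0.09 (SE, adjusted p = 0.0013), or by -0.44 ± 0.08 (adjusted p = 0.0017) without wild-type ZT2 replicate 2. With the length offsets the change was -0.23 (adjusted p = 0.010). The 9 genes GstE1 to GstE9 stand side by side on 2R from 18398393 to 18409835, all on the plus strand and each with a single-exon main transcript. None of the 9 was called over all times in either fit. Their log2 fold changes ran from -0.47 (GstE5) to 0.16 (GstE4), with a median of -0.06 with all libraries and -0.12 without the one that stood apart, but 0.15 with the length offsets, where 8 of the 9 lay above 0, against 2 with all libraries. None passed in that fit, and 3 of these 9 (GstE3, GstE5 and GstE6) passed in 1 to 4 alternative fits. GstE6 was at 37.3, 57.1 and 102 CPM in wild type and 38.3, 50.3 and 73.3 CPM in the mutant, and GstE9 at 24.02, 61.7 and 110.2 CPM in wild type and 35.5, 58.7 and 87.01 CPM in the mutant, and the genotypes overlapped in all 9 genes. Exons of GstE9, GstE12 and GstE13 overlap a gene on the other strand by 40, 33 and 6 nt. Delta and epsilon genes are duplicates of one another, and no source used here states how reads matching several of them were divided. GstE11 (log2 -0.29) and GstE12 (-0.19) did not pass with all libraries or without that one, while GstE11 passed in 8 and GstE12 in 0 of 40 alternative fits.

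All 3 omega genes lie together on 3L between 8518885 and 8524866. Omega enzymes carry a cysteine in the active site and act as thiol transferases and dehydroascorbate reductases. GstO3 was lower: 42.7, 51.1 and 78.7 CPM in wild type and 32.5, 37.5 and 44.3 CPM in the mutant, with 9 mutant libraries below all of wild type and a change of -0.46 ± 0.09 (SE, adjusted p = 0.0026), or -0.50 ± 0.09 (adjusted p = 0.00099) without wild-type ZT2 replicate 2. With the length offsets it was -0.23 and no longer passed. GstO2 was called with all libraries only. Its CPM were 57.5, 79.4 and 135 in wild type and 51.5, 66.1 and 82.3 in the mutant, and its log2 difference was -0.31 ± 0.10 (SE, adjusted p = 0.036), against -0.24 ± 0.09 (adjusted p = 0.0505) without the library that held its highest wild-type value and -0.07 (adjusted p = 0.28) with the length offsets. GstO1 did not pass (-0.08 ± 0.11, adjusted p = 0.62). Exons of GstO2 overlap those of the omega gene se (sepia), which makes an intermediate of the red drosopterin eye pigments, by 61 nt on the other strand. The library kit keeps strand, but no source used here states whether the authors' counting did, so reads in those 61 nt cannot be assigned to either gene with certainty.

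Theta enzymes are an old class, known in mammals for the breakdown of halogenated compounds. GstT4, on the X chromosome (13404749 to 13409323), was at 43.1, 60.1 and 65.9 CPM in wild type and 33.2, 46.6 and 53.9 CPM in the mutant. Its lowest wild-type value was in ZT2 replicate 2, and without that library 10 of the 12 mutant libraries lay below all of wild type. GstT4 changed by -0.38 ± 0.07 (SE, adjusted p = 0.0016) and by -0.42 ± 0.05 (adjusted p = 4.3e-05) without it, and by -0.22 (adjusted p = 0.031) with the length offsets. GstT2 was at 14.1, 18.5 and 20.8 CPM in wild type and 11.5, 13.4 and 17.5 CPM in the mutant, with 8 mutant libraries below all of wild type, and changed by -0.40 ± 0.08 (SE, adjusted p = 0.002), with -0.40 ± 0.08 (adjusted p = 0.0021) without wild-type ZT2 replicate 2. The GstT2 call ended with the length offsets (-0.17), and 223 of its 887 exonic nt overlap CG12926 on the other strand. GstT1, its neighbour on 2R (9605988 to 9607184, against 9607292 to 9608350 for GstT2), was -0.07 ± 0.07 and GstT3 0.05 ± 0.10, neither past the threshold.

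The zeta class holds the maleylacetoacetate isomerase of tyrosine breakdown. Its 2 fly genes lie next to each other on 3R on the minus strand (9455517 to 9456546 for GstZ1 and 9456815 to 9460652 for GstZ2) and went in opposite directions. GstZ1 was higher: 3.24, 4.92 and 11.4 CPM in wild type and 4.81, 6.93 and 13.4 CPM in the mutant, with 11 of 12 mutant libraries above the wild-type median, and a change of 0.46 ± 0.14 (SE, adjusted p = 0.030), or 0.51 ± 0.14 (adjusted p = 0.019) without wild-type ZT2 replicate 2. GstZ2 was lower: 12.9, 21.7 and 33.1 CPM in wild type and 11.1, 15.01 and 29.02 CPM in the mutant, with 9 of 12 libraries below the wild-type median, and a change of -0.38 ± 0.12 (SE, adjusted p = 0.026), or -0.41 ± 0.12 (adjusted p = 0.018) without that library. Both pairs of ranges overlapped widely. The genes are 931712 and 927606 bases from cwo on the same arm, and the delta cluster 1964024 to 1982584 bases from it. Both zeta calls kept their direction with the length offsets (0.68 and -0.41), and GstZ1 passed in 28 and GstZ2 in 32 of 40 alternative fits. With the mutant libraries numbered 1 or 2 alone neither passed: GstZ1 was 0.27 with the libraries numbered 1 (adjusted p = 0.28) and 0.60 with those numbered 2 (adjusted p = 0.12), and GstZ2 was -0.33 with the libraries numbered 1 (adjusted p = 0.061) and -0.47 with those numbered 2 (adjusted p = 0.062).

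GstS1, the sigma enzyme, conjugates the lipid peroxidation product 4-hydroxynonenal and is known as an abundant protein of the fly's flight muscle. Its mutant libraries held 49.96, 60.2 and 78.8 CPM, and 10 of the 12 lay above every wild-type library. In wild type the CPM were 2.83, 44.4 and 55.9, and the lowest value belonged to ZT2 replicate 2; the other 11 held 31.4 to 55.9 CPM. With all libraries GstS1 was 0.62 ± 0.26 (SE, adjusted p = 0.080) and not called, and without that library it was 0.47 ± 0.09 (adjusted p = 0.0014). With the length offsets and all libraries it was 0.73 (adjusted p = 0.058). The 7 muscle markers summed to 4795 to 6601 CPM in wild type and to 3522 to 4487 CPM in the mutant, where 5 of the 7 were called lower and none higher.

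**Figure D3:**
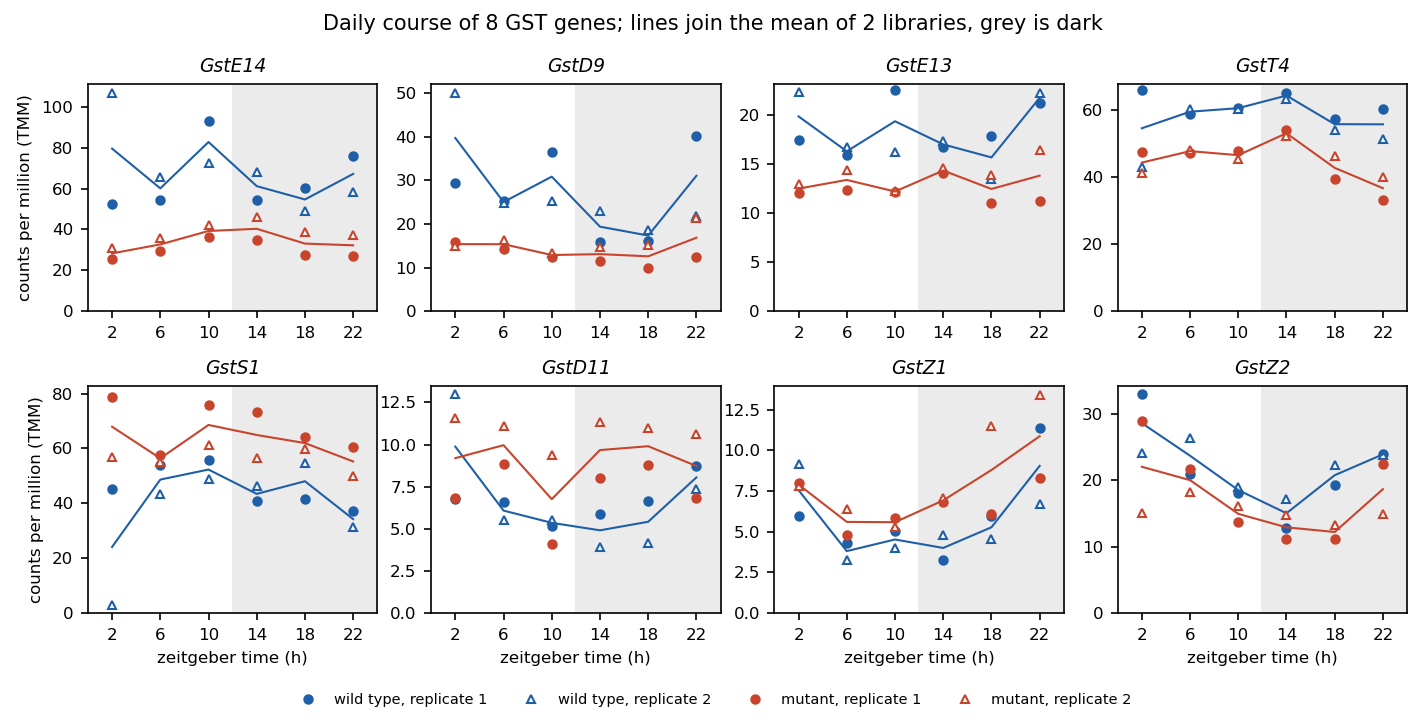
CPM of GstE14, GstD9, GstE13, GstT4, GstS1, GstD11, GstZ1 and GstZ2 against zeitgeber time; filled circles are replicate 1, open triangles replicate 2, lines join the means of both, and grey marks the dark phase. GstE14 is lower in the mutant at all 6 times, GstS1 of wild-type ZT2 replicate 2 falls near 0, and GstZ2 dips in the early night in both genotypes.

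At single times, 6 GST genes were called at ZT2, all lower in the mutant (9.42% of all genes were lower at ZT2): GstD9, GstE11, GstE13, GstE14, GstO2 and GstT2. Without wild-type ZT2 replicate 2, 0 were called, and 0 were called without either mutant ZT2 library; without wild-type ZT2 replicate 1, 10 were. Each of these fits leaves 1 ZT2 library in a genotype, and the share of all genes called there is not given here. Neither 0 nor 10 is therefore read as a trait of the family. In wild-type ZT2 replicate 2 the 7 antennal support-cell markers summed to 7819 CPM, the highest of all 24 libraries (median of wild type 2871 CPM). Other lists stood out there too. The 6 glial markers summed to 2215 CPM, also the highest of all 24 libraries. The 3 oenocyte markers in the table summed to 1025 CPM, the lowest of all 24. The 7 muscle markers summed to 6589 CPM, near the wild-type highest of 6601 CPM. The part of any of these lists was not tested. GstE14 at ZT2 held 52.2 and 107 CPM in wild type and 25.7 and 30.9 CPM in the mutant (replicates 1 and 2), a log2 difference of -1.49 ± 0.30, adjusted p = 0.016, and of -0.88 ± 0.27, adjusted p = 0.24 without that library. GstE11 at ZT2 held 11.2 and 20.7 CPM in wild type and 7.75 and 7.63 CPM in the mutant (-1.04 ± 0.27, adjusted p = 0.035; -0.54 ± 0.25, adjusted p = 0.48 without it). GstD9 held 29.4 and 49.96 CPM in wild type and 15.8 and 14.96 CPM in the mutant (-1.36 ± 0.34, adjusted p = 0.032). For GstO2 the log2 difference was -0.83 ± 0.25, adjusted p = 0.043, for GstE13 -0.66 ± 0.21, adjusted p = 0.0490, and for GstT2 -0.58 ± 0.19, adjusted p = 0.04998. In GstT2 the wild-type replicates were close, at 18.7 and 18.99 CPM, and in the other 5 genes replicate 2 was higher by a wider margin.

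At the other 5 times edgeR called 0 of the 31, with lowest adjusted p of 0.10 (ZT10), 0.11 (ZT22), 0.26 (ZT6), 0.50 (ZT18) and 0.55 (ZT14). Of all 11095 genes tested, edgeR called 92 at ZT6, 140 at ZT10, 90 at ZT14, 84 at ZT18 and 129 at ZT22. With so few calls, 0 of 31 does not set the GST genes apart. At an unadjusted p under 0.05 the edgeR counts were 2 at ZT6, 6 at ZT10, 2 at ZT14, 3 at ZT18 and 8 at ZT22. The share of all genes at that unadjusted threshold is not given here. DESeq2 called 2 at ZT10, 2 at ZT22 and 0 at the rest. How many of all genes were called at these times by DESeq2, or by edgeR without wild-type ZT2 replicate 2, is not given here. Calls in those fits are therefore not read as a trait of the family. Without wild-type ZT2 replicate 2, GstE14 was called at ZT10 (-1.07 ± 0.23, adjusted p = 0.024) and ZT22 (-1.06 ± 0.23, adjusted p = 0.025), and GstT4 at ZT22 (-0.60 ± 0.12, adjusted p = 0.015). GstE14 at ZT10 held 93.05 and 72.4 CPM in wild type and 36.5 and 41.9 CPM in the mutant, and GstT4 at ZT22 held 60.1 and 51.2 CPM in wild type and 33.2 and 40.05 CPM in the mutant. By sign alone, 26 of the 31 were lower in the mutant at ZT2 and at ZT22, 22 at ZT10, 19 at ZT6, 17 at ZT18 and 13 at ZT14. The median log2 difference was -0.33, -0.20, -0.30, 0.06, -0.03 and -0.47 from ZT2 to ZT22, beside all-gene medians between -0.02 and 0.02. With the length offsets the counts of lower members were 15 at ZT2, 16 at ZT10 and 21 at ZT22, and the medians there 0.14, -0.03 and -0.12, so at ZT2 the sign of the median turned. Wild-type ZT22 replicate 1, with the lowest length score (-1.10), had the highest median deviation of the GST genes of all 24 libraries (0.51 log2). Without it 24 members were lower at ZT22 and the median was -0.27. Wild-type replicate 1 had a length score of -0.45 at ZT2 and -0.52 at ZT10, with GST deviations of 0.29 and 0.23. That spread over times did not pass as a difference between times in any member. The genotype by time interaction was called in 0 of 31 (lowest adjusted p 0.90, 0 at an unadjusted p under 0.05, 0 by DESeq2). With all libraries edgeR called it in 0 of all 11095 genes tested, so 0 of 31 does not set the GST genes apart.

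**Figure D4:**
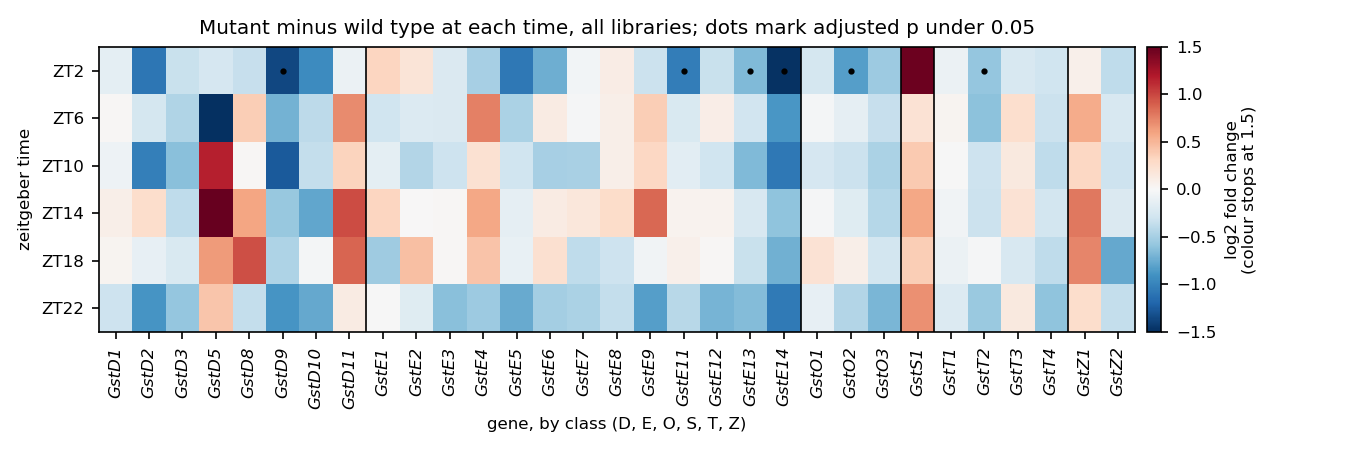
Log2 difference of mutant minus wild type for each GST gene (columns, by class) at each zeitgeber time (rows), blue for lower and red for higher in the mutant, with colour stopping at 1.5; dots mark an adjusted p under 0.05 with all libraries. All 6 dots are in the ZT2 row, and the GstE14 column is blue at every time.

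A 24 h rhythm was tested as a cosine and a sine in each genotype. In wild type 2 GST genes passed with all libraries, GstE5 and GstZ1, against 5.62% of all genes. At an unadjusted p under 0.05 the count was 15. GstZ1 was highest in the late night, with an amplitude of 0.55 ± 0.16 log2 units and a fitted peak at ZT 22.9 ± 1.09 h (adjusted p = 0.036). Its wild-type CPM were 11.4 and 6.71 at ZT22 and 4.34 and 3.29 at ZT6. GstE5 had an amplitude of 0.65 ± 0.21 and a peak at ZT 2.51 ± 1.24 h (adjusted p = 0.0497), and its highest value, 24.2 CPM, was in ZT2 replicate 2, against 9.18 CPM in replicate 1.

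Without that library neither passed (adjusted p = 0.0544 and 0.22), and 4 other members did, against 5.38% of all genes: GstE1, GstD3, GstZ2 and GstE8 (adjusted p = 0.035, 0.042, 0.0464 and 0.0466). Their fitted peaks lay around and after lights on, from ZT 0.796 ± 0.723 h for GstE8 to ZT 3.95 ± 1.05 h for GstE1, with amplitudes of 0.44 ± 0.09 to 0.52 ± 0.15. Wild-type length scores varied with time: -1.10 and -0.53 at ZT22, -0.45 and -0.98 at ZT2, -0.52 and -0.14 at ZT10 (replicates 1 and 2). At ZT6, ZT14 and ZT18 they ran from -0.06 to 0.15. Median GST deviations were 0.51 and 0.13 log2 at ZT22, 0.29 and 0.38 at ZT2, and 0.23 and 0.01 at ZT10. At ZT6, ZT14 and ZT18 they ran from -0.12 to 0.18. The part of the length score in these peaks was not tested. In GstZ2 the amplitude was 0.40 ± 0.08 with all libraries and 0.45 ± 0.08 without that one, and 0.42 ± 0.12 in the mutant. In the mutant 0 of 31 passed, with a lowest adjusted p of 0.091 (GstZ2), where 1.09% of all genes passed. With so low a share, 0 of 31 does not set the GST genes apart. At an unadjusted p under 0.05 the count was 6, again without the share of all genes. The difference of rhythm between genotypes passed in 0 of 31 in both fits (1 at an unadjusted p under 0.05 with all libraries). It passed in 0 of all 11095 genes tested in both fits too. So a rhythm called in 1 genotype was not shown to differ from the other, in GST genes or in any other gene. The rhythm tests were not run in DESeq2.

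The mutant libraries differed by replicate number. In GST genes the 6 libraries numbered 1 were lower than the 6 numbered 2, by a median over the 31 genes of -0.27 log2 (-0.01 over all genes tested). At all 6 times the library numbered 1 was the lower one in 10 GST genes (14.8% of all genes tested) and the higher one in 1, GstS1 (12.5%). The length score moved with the sets: abundant long minus short genes deviated by 0.23 to 0.48 log2 in the 6 mutant libraries numbered 1 and by -0.35 to 0.20 in the 6 numbered 2, without overlap, and the median deviation of the GST genes was -0.38 to -0.04 and -0.07 to 0.12. In wild type the counts were 0 (2.31%) and 2 (2.03%), with a median of 0.16 (0.00 over all genes). The widest gaps were in GstD8, with 1.04 to 3.08 CPM in the 6 mutant libraries numbered 1 and 3.60 to 4.21 CPM in the 6 numbered 2, and GstE4, with 22.3 to 60.8 CPM in the 6 mutant libraries numbered 1 and 76.3 to 103 CPM in the 6 numbered 2. Of 11 listed fat body names, which include spelling variants and the yolk protein genes (Yp), 7 were in the table, none at 0 in all libraries. They summed to 41094 to 63608 CPM in the mutant libraries numbered 1 and to 10282 to 15665 CPM in those numbered 2. In wild type the sum was 4751 to 33512 CPM. Of the 7, 5 were called higher and 1 lower in the mutant over all times. The labels do not give the sex of the flies. The 6 haemocyte markers summed to 469 to 529.9 CPM in the mutant libraries numbered 1 and to 203 to 311 CPM in those numbered 2. The part of the length score or of either list in the GST values was not tested.

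The genotype comparison differed with the set used; both fits share the 12 wild-type libraries, and each lone mutant library is taken to vary like the wild-type pairs. With the mutant libraries numbered 1 alone, 10 GST genes were lower and 0 higher (13.0% and 11.6% of all genes). With those numbered 2 alone, GstE14 was lower and GstD11 higher (1.86% and 1.60% of all genes were called lower and higher). GstE14 was -1.16 with the libraries numbered 1 (adjusted p = 0.0028) and -0.80 with those numbered 2 (adjusted p = 0.033). GstD9 was -1.06 with the libraries numbered 1 (adjusted p = 0.0063) and -0.72 with those numbered 2 (adjusted p = 0.077), and GstE13 -0.59 with the libraries numbered 1 (adjusted p = 0.0092) and -0.37 with those numbered 2 (adjusted p = 0.15). GstD11 was 0.13 with the libraries numbered 1 (adjusted p = 0.62) and 0.76 with those numbered 2 (adjusted p = 0.0475). GstT4 was -0.40 with the libraries numbered 1 (adjusted p = 0.028) and -0.36 with those numbered 2 (adjusted p = 0.13). The family medians were -0.33 and -0.10 on the log2 scale. Of the 10 genes lower over all times, GstE14 passed with the libraries numbered 2 alone and the other 9 did not, some of them with changes as large as over all libraries: GstO3 was -0.45 with the libraries numbered 1 (adjusted p = 0.039) and -0.48 with those numbered 2 (adjusted p = 0.10), and GstZ2 -0.33 and -0.47.

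**Figure D5:**
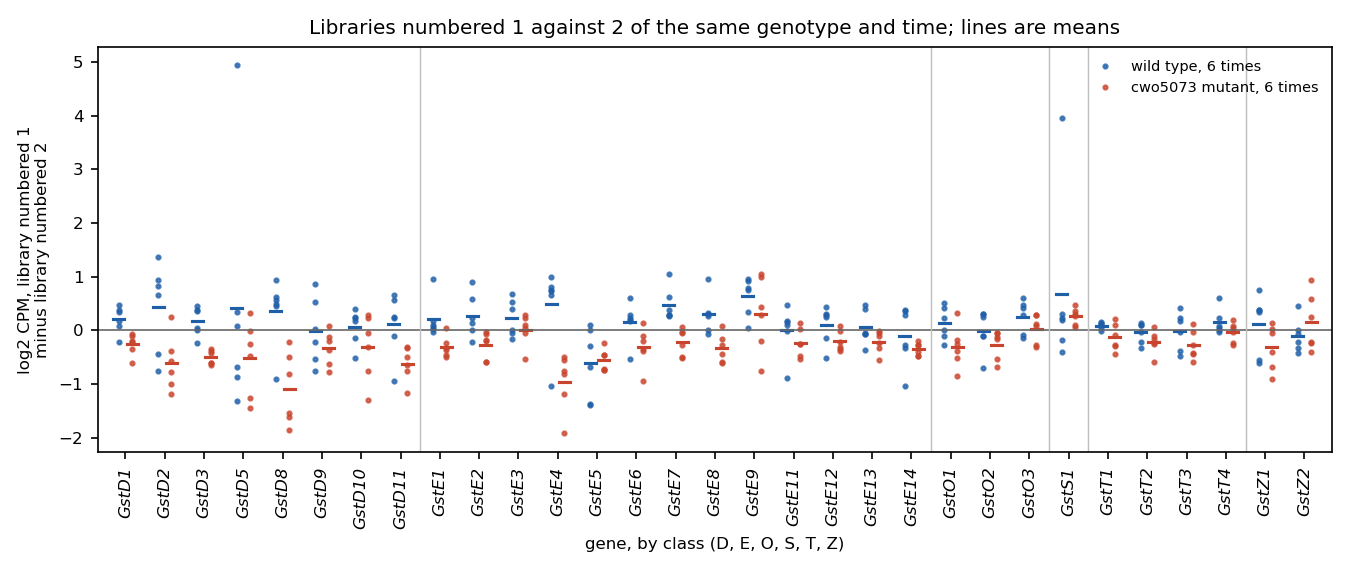
Log2 CPM of the library numbered 1 minus the one numbered 2 of the same genotype and time, for each GST gene; each point is one time (blue wild type, red mutant) and short lines are means. The red lines lie below 0 in most genes, with GstD8 and GstE4 lowest, and GstS1 has all 6 red points above 0.

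The 31 genes have 49 annotated transcripts, of which 47 (in 30 genes; the transcript of GstD5 was too low) were tested with limma on log2(FPKM + 1), a scale that understates the change of low transcripts. Of the 47, 7 were lower and 1 higher, against 4.29% and 3.49% of all 21548 transcripts tested. GstE14, GstO3, GstT2 and GstT4 have 1 transcript each, and those were lower. In 3 genes with several transcripts 1 was lower: NM_136613, which held 97.5% ± 4.35 of the GstE13 signal in wild type, NM_168277 of GstO2 and NM_001299928 of GstE12. The last of these held 27.1, 50.1 and 98.2 in wild type and 22.7, 30.7 and 48.8 in the mutant (FPKM; lowest, median, highest), a fitted change of -0.55 ± 0.16 (SE, adjusted p = 0.0487; 0.068 without wild-type ZT2 replicate 2), while the main GstE12 transcript NM_001259572 was -0.17 ± 0.12 (SE, adjusted p = 0.39). The one higher transcript was NM_166216 of GstS1, with an FPKM of 0, 1.81 and 7.50 in wild type and 2.91, 5.16 and 6.68 in the mutant and a change of 1.20 ± 0.34 (SE, adjusted p = 0.0475). Its share of the GstS1 signal varied widely between wild-type libraries, at 14.2% ± 17.9 against 12.7% ± 3.14 in the mutant, as did that of the main transcript NM_079043 (74.7% ± 25.0 against 86.6% ± 3.36). The main transcript also passed without wild-type ZT2 replicate 2 (adjusted p = 0.028). Other shares jumped between libraries: of GstD9, NM_141924 held 8.33% ± 28.9 of the wild-type signal, and the share of NM_137486 in GstE8 was 39.1% ± 48.5, so their single transcripts are not described.

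Around the GST family, 51 genes that make, recycle, use or export glutathione or take part in the antioxidant response were listed, and 44 of them were tested: 8 were higher and 7 lower with all libraries, and 8 and 8 without wild-type ZT2 replicate 2, where 14.1% and 13.9% of all genes were higher and lower with all libraries and 15.4% and 13.8% without that one. Of the 13 genes of glutathione synthesis and recycling tested 5 were higher and 1 lower. Among 12 other users of glutathione 1 was higher and 3 lower, among 3 exporters of conjugates 1 was higher, and among 16 antioxidant regulators and enzymes 1 was higher and 3 lower. The largest change was in the omega gene se, with 172, 231 and 668 CPM in wild type and 27.8, 37.7 and 59.6 CPM in the mutant; no libraries of the genotypes overlapped, and the fitted difference was -2.77 ± 0.18 (SE, adjusted p = 5.1e-08) in log2. The xanthine dehydrogenase gene ry, which acts in pteridine and purine breakdown, had 14.8, 23.5 and 35.7 CPM in wild type and 28.6, 36.4 and 55.4 CPM in the mutant, a change of 0.75 ± 0.13 (SE, adjusted p = 0.0011). Sod2, the mitochondrial superoxide dismutase, had 151, 177 and 425 CPM in wild type and 101, 128 and 157 CPM in the mutant, a change of -0.60 ± 0.12 (SE, adjusted p = 0.0032), and the transporter gene Mrp4 had 25.4, 36.5 and 40.98 CPM in wild type and 41.3, 48.2 and 53.5 CPM in the mutant, a change of 0.47 ± 0.06 (SE, adjusted p = 9.3e-05). In Mrp4 the mutant libraries all lay above the wild-type ones, while ranges overlapped in ry and Sod2.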

How the data were processed

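Poly(A) RNA of fly heads was read as 75 bp single-end reads from directional libraries, per the labels' protocols. Build dm6 and the tools StringTie, STAR 2.6.1d and DESeq2 are named, without roles, in the submitters' processing notes. The deposited gene table holds expected counts, not normalized: for all 16722 genes compared, each count equalled coverage times length over 75, rounded up per transcript and summed. These are estimates, not reads counted once. Names turned into calendar dates (5) were left out, at most 0.0275% of counts in a library. Per the file headers, each transcript has a coverage (a signal per base, unscaled for depth) and an FPKM. Levels between genes use the deposited transcript FPKM summed per gene, since the authors' gene FPKM differed from that sum by over 1.5-fold in 5407 of 7627 genes. Gene positions are those of the deposited transcript tables, and exon overlaps were computed from the Ensembl annotation of BDGP Release 6, the assembly of dm6.

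Counts were analysed with edgeR 4.0.16 (filterByExpr, TMM, glmQLFit, glmQLFTest; 12 groups of genotype and time, no replicate term) in R 4.3.3, adjusted by Benjamini-Hochberg at 0.05 over 11095 genes. Fold changes average log values over times. Rhythms used a cosine and sine of 24 h, with amplitude and peak by least squares on log2 CPM (prior count 2). For transcripts, limma 3.58.1 (trend) was run on log2(FPKM + 1) where 2 or more libraries reached an FPKM of 1. DESeq2 1.42.0, other scalings, filters, replicate blocks, length offsets (lowess, span 0.3) and left-out libraries were alternatives. Among the 40 alternative fits, the one without wild-type ZT2 replicate 2 is counted both as its own setting and as a single left-out library. Tested on simulated counts for the comparison over all times, edgeR found 62% of 100 genes changed by 0.5 log2. It found 98% of 100 changed by 1, with 0.0464% false calls. Each simulated library was drawn independently, without the shift shared by mutant libraries of the same number or the trend with transcript length. These rates therefore need not hold for the deposited counts. Totals of 11322400 to 19642411 counts limit the precision of the scarcest genes. The common biological coefficient of variation was 0.26. Summaries and plots used pandas 2.3.3, numpy 2.4.6 and matplotlib 3.10.9 under Python 3.11.15.

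Members called over all times with all libraries and without wild-type ZT2 replicate 2 are described in full, the rest by value or range. Pathway genes were named where they had the 4 largest called changes. The members, lists and naming rule were chosen with earlier results of these data known. The treatment text names ZT2 and ZT14 only; the 6 times are those of the sample titles. No sequences are shown.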

Additional observations from a re-analysis of the deposited data

How the results depend on the processing

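The GstE14 call held in all 40 alternative fits; GstD9, GstE13 and GstT4 held in 39, all but the fit without the mutant libraries numbered 1, which was chosen after seeing the data, as was its counterpart. With gene length offsets, alone or with a replicate block, 5 genes were lower, the family median was 0.049 (0.050 with the block), 2 pathway genes were lower, 2 GST genes were called at ZT10, and 2 (3 with the block) at ZT2; 4 (6 with the block) were rhythmic in wild type and 2 (1 with the block) in the mutant. At ZT6 to ZT18 only, 4 GST genes were lower and 1 higher, beside 374 and 415 of all 11095 genes. There 1 pathway gene was lower and 2 were higher. With library totals only, 1 GST gene was higher (940 of all 11095 genes), 1 called at ZT2, 0 rhythmic in wild type and 3 pathway genes higher. Without a filter on low counts these were 3 at ZT2, 1 rhythmic and 5 pathway genes higher, and without one on FPKM 0 transcripts were higher. The limma fit on gene FPKM gave 5 higher pathway genes with a pseudocount of 1, and 3 with 0.1. With 0.1 it also gave 1 higher GST gene, beside 693 of all 8489 genes. DESeq2 called 2 genes at ZT10 and 2 at ZT22, and 10 lower and 3 higher over all times, beside 1730 and 1942 of all 11095 genes.

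Without wild-type ZT2 replicate 2 the counts were 0 at ZT2, 1 at ZT10, 2 at ZT22, 4 rhythmic genes in wild type and 2 higher transcripts; with wild-type ZT22 replicate 1 left out too they were 0 at ZT2 and 2 at ZT10, with 4 pathway genes lower. Without the mutant libraries numbered 1, 1 GST gene was lower and 1 higher, 0 were called at ZT2, 1 was rhythmic in wild type, and 1 pathway gene was lower and 0 higher. Without those numbered 2, 0 GST genes were higher, 0 called at ZT2 and 1 rhythmic in wild type.

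Over single left-out libraries the lower GST genes numbered 8 to 13, and the higher ones 0 to 3, with 0 without wild-type ZT6, ZT10 or ZT18 replicate 2 or mutant ZT14 replicate 1, ZT6 replicate 2 or ZT18 replicate 2. The range was 0 to 10 at ZT2 (0 also without either mutant ZT2 library, 10 without wild-type ZT2 replicate 1), 0 to 1 at ZT10, 0 to 2 at ZT22, 0 to 3 for the interaction (3 without wild-type ZT2 replicate 1), 0 to 4 and 0 to 1 for rhythms in wild type and mutant, -0.25 to -0.16 for the family median, 4 to 12 and 5 to 14 for pathway genes lower and higher, and 2 to 10 and 0 to 3 for transcripts lower and higher. The labels do not say whether replicate numbers pair the genotypes. Deviations of same-numbered libraries correlated over 0.1 in 2 of 6 times between genotypes (-0.28 to 0.11). Within genotypes they did so in 3 of 15 pairs of times in wild type and 14 of 15 in the mutant. With 2 libraries per group, these few correlations cannot decide whether the genotypes are paired. With the replicate block 11 GST genes were lower and 2 higher, beside 1875 and 1711 of all 11095 genes. With the block within genotype 13 were lower, beside 2002 of all 11095 genes (1538 in the main fit). In that fit 1 was called at ZT22, 6 were rhythmic in wild type and 11 pathway genes were lower. The number of all genes called changed with the left-out library too. For left-out libraries, single times, the interaction, rhythms, pathway genes and transcripts, this section gives no share of all genes or transcripts. Those counts describe the settings and are not read as traits of the family. The causes were not tested. GstD5, with 10 counts in 4 libraries, is the member that depth limits most.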
